A study of Mus musculus with 8 samples.

Results

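The immediate early and tissue digestion response was followed through 39 genes in mammary epithelium at pregnancy day 14.5. The 39 genes were listed by name, with earlier results of these data known, and each was found among the 55933 genes of the deposited FPKM table (FPKM, fragments scaled to transcript length and sequencing depth). RNA-seq compared 4 control with 4 cKO mice on a C57BL/6 background, at 1 library per mouse. The cKO mice carried K14-rtTA, teto-Cre and floxed Bmpr1a, in which doxycycline in the drinking water switches on Cre in cells that use the K14 promoter, the myoepithelial layer of the gland. Controls were littermates, which the sample labels call wild type and whose alleles are not given in the sources used here. Glands of both groups were minced, digested with collagenase and hyaluronidase and freed of red cells with NH4Cl, so each library held the RNA of a whole epithelial preparation that had been through enzyme digestion. No undigested tissue was among the 8 libraries, so the data compare the response between libraries and do not give its size over intact tissue. It was asked whether the response differed between control and cKO libraries, or between the libraries numbered 1 and 2 and those numbered 3 and 4.

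Immediate early genes are transcribed within minutes of a stimulus, from promoters already occupied by factors such as SRF and CREB, which act once kinases downstream of the stimulus phosphorylate CREB and the ternary complex partners of SRF. Their products are mostly transcription factors (FOS, JUN, EGR, KLF and NR4A proteins), and another class of products shuts the response down again (MAP kinase phosphatases, mRNA decay factors, IκBα). Cells taken out of tissue by warm enzyme digestion are known for this response, together with the heat shock response, in which HSF1 trimers bind inverted GAA repeats upstream of chaperone genes.

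Of the 39 genes, 38 had reads in every library and passed the filter of a mean of at least 0.5 FPKM. Egr2 was listed at 0 in all 8 libraries, while Egr1 and Egr3 were detected in each. Whether that 0 reflects the cells or the annotation used for counting could not be settled from the table. Mean levels of the 38 ran from 6.95 FPKM for Nr4a2 to 960.0 FPKM for Nfkbia. The data give a mixed picture. Of the 5 heat shock genes, 4 were higher in cKO at an unadjusted p under 0.05 in limma, which 8.85% of all genes tested passed upwards. The 33 other genes that were tested held 7 that were lower at that threshold (7.53% of all genes) and 0 that were higher. None of the 38 had an adjusted p under 0.05 in limma, beside 0.892% of all genes. The most visible feature was not a shift between groups but the distance between cKO libraries, with cKO 4 highest for many of the genes and cKO 2 lowest.

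The inverted GAA repeat is shown here in the 250 bases before the start of Hspa1a, Hspa1b and Hspb1, the heat shock genes whose window holds a match. Hspa1a and Hspb1 are among the 4 heat shock genes that were higher in cKO, Hspa1b is not, and the other two, Hsph1 and Dnajb1, had no match. The sequences are RefSeq promoter windows of GRCm38.p6, written 5′ to 3′ on the strand of the gene, with each match to GAANNTTC in capitals. Hspa1a lies on the minus strand (window chr17:34972157-34972406), Hspa1b on the minus strand (chr17:34959239-34959488) and Hspb1 on the plus strand (chr5:135887669-135887918).

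Hspa1a: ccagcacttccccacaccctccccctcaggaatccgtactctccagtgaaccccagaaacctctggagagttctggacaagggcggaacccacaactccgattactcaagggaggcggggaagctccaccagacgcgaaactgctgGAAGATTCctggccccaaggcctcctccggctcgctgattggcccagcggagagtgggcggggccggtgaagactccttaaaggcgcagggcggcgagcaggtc
Hspa1b: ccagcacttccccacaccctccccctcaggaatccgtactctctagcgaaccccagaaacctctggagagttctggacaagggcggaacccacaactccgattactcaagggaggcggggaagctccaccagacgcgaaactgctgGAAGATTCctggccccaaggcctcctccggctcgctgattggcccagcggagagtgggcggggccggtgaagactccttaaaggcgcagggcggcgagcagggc
Hspb1: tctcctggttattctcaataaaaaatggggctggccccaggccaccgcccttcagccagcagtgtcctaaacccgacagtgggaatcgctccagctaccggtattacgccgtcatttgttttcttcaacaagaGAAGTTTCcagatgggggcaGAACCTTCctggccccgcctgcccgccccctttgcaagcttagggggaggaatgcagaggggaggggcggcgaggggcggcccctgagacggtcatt

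Hspa1a and Hspa1b, which both encode the inducible HSP70, had nearly the same upstream sequence, with 3 of the 250 positions different, and each held 1 match, 97 to 104 bases before the start. Hspb1, which encodes the small chaperone HSP27, held 2 matches, at 90 to 97 and at 110 to 117 bases before the start. A window was found for 34 of the 39 genes; Myc, Egr1, Egr3, Fosl1 and Ier2 had none. Matches to GAANNTTC, read on both strands, were in 5 of the 34 (14.7%) and in 7.73% of 27025 genes. The 5 were Hspa1a, Hspa1b, Hspb1, Jun and Fosl2. The cyclic AMP response element TGACGTCA was in 3 of the 34 (8.82%, Btg2, Dusp1 and Maff) and in 1.77% of all genes. The CArG box of SRF was in 3 as well (8.82%, Dusp5, Egr2 and Zfp36) and in 1.62% of all genes. The AP-1 site TGANTCA was in 0 of the 34 and in 7.82% of all genes. None of the motifs overlapped another in the sequences printed, and a match is a description of the letters only.

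Depth was similar across libraries, with 16123108 to 19896988 reads on genes. The share of reads on mitochondrial genes was 1.83% to 1.93% in control and 2.14% to 2.36% in cKO libraries, with no overlap. Bmpr1a itself was 10.1 ± 1.28 FPKM in control and 11.2 ± 1.01 FPKM in cKO libraries (SD, n = 4 each), and was not lower in cKO (limma adjusted p = 0.560). A value over all exons does not separate the deleted part of the gene, so it does not check the labels, and control and cKO mean the libraries so labelled throughout. Summed luminal keratin, Epcam, Elf5 and casein markers (7 of 7 detected in every library) were 6477 to 8155 FPKM in control and 7932 to 11640 FPKM in cKO libraries. The caseins Csn2 and Csn3 and the factor Elf5 had limma log2 fold changes of 1.02, 0.95 and 0.82. Those of Krt8, Krt18, Krt19 and Epcam were -0.003, 0.06, -0.11 and -0.18, so the higher sum in cKO came mostly from the caseins. Summed myoepithelial markers (8 of 8 detected) were 1606 to 2186 FPKM in control and 1508 to 2078 FPKM in cKO libraries. That sum covers genes of different direction, with limma log2 fold changes of -0.39 for Krt14, -0.42 for Trp63, 0.21 for Acta2 and 0.85 for Oxtr. The rest ran from -0.08 for Myh11 to 0.11 for Cnn1. Markers of other cells were present in both groups, at 441 to 920 and 299 to 713 FPKM for 6 fibroblast genes, 67.3 to 76.1 and 48.2 to 73.1 FPKM for 5 endothelial genes, and 77.2 to 119 and 97.4 to 129 FPKM for 4 adipocyte genes. Nearly all of the adipocyte sum was Fabp4, at 77.0 to 128 FPKM over all libraries. Adipoq, Plin1 and Lep reached at most 1.99, 0.371 and 0.188 FPKM, and Lep was listed at 0 in 2 control libraries. In such bulk samples, fewer cells of a type and less RNA per cell cannot be told apart.

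The heat shock genes code for chaperones that hold or refold damaged proteins, and cKO 4 stood at the top for all 5 of them. Hspb1, on chromosome 5 from 135887919 to 135889563 (GRCm38, as all coordinates here), was 341, 332, 301 and 324 FPKM in control replicates 1 to 4 and 341, 563, 545 and 922 FPKM in cKO replicates 1 to 4. The groups were next to each other without overlap, since cKO 1 was level with control 1 (340.9 against 340.5) and the 3 other cKO libraries were far above it. In TPM the groups of Hspb1 overlapped. The means were 324 ± 17.1 and 593 ± 242 FPKM (SD, n = 4 each), and limma gave a log2 fold change of 0.78 on log2(FPKM + 1) with a standard error of 0.25 (Benjamini-Hochberg adjusted p = 0.174). Dnajb1, the HSP40 that hands clients to HSP70, lies on chromosome 8 from 83608193 to 83612653. It was 45.3, 37.6, 44.7 and 41.1 FPKM in control and 54.5, 48.4, 52.7 and 121 FPKM in cKO libraries. Its groups did not overlap either, 3 of the cKO libraries lay a little above the controls, and cKO 4 lay apart from them. The log2 fold change was 0.60 with a standard error of 0.26 (limma adjusted p = 0.297). For Hspb1 and for Dnajb1 the exact permutation test, two-sided, gave p = 0.0286, the smallest that 4 libraries against 4 allow.

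Hspa1a, on chromosome 17 from 34969190 to 34972156, was 74.5, 49.9, 50.6 and 33.2 FPKM in control and 73.7, 90.4, 65.5 and 284 FPKM in cKO libraries. The groups overlapped at control 1, and cKO 4 was far above the next library, cKO 2. Its log2 fold change of 1.06 (standard error 0.44, limma adjusted p = 0.276) was the largest of the 38 genes. Hspa1b, its neighbour on chromosome 17 from 34956436 to 34959238, was 287, 197, 166 and 137 FPKM in control and 194, 254, 202 and 574 FPKM in cKO libraries. Here only cKO 4 was above control 1, and the log2 fold change of 0.54 with a standard error of 0.35 did not pass (limma adjusted p = 0.501). The longest open reading frames of both genes were identical at 99.43% of aligned positions, and 47.1% of all stretches of 100 bases of Hspa1a occur in Hspa1b. How the counting shared such reads is not given in the sources used here, so how the signal is divided between these 2 genes is uncertain. In addition, 19.0% of the exonic bases of Hspa1a lie in an annotated neighbour on the other strand, Gm20481, which had 0 reads here.

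Hsph1, on chromosome 5 from 149614287 to 149636376, encodes the HSP110 that acts as a nucleotide exchange factor for HSP70. It was 58.9, 63.5, 29.8 and 38.2 FPKM in control and 62.7, 92.4, 70.7 and 107 FPKM in cKO libraries. Control 3 and 4 were low, and control 2 was just above cKO 1, so the groups overlapped. The log2 fold change was 0.83 with a standard error of 0.26 (limma adjusted p = 0.165). Averaged over the 5 genes, log2(FPKM + 1) was 6.25 to 6.85 in the control libraries and 6.81, 7.16, 6.94 and 8.17 in cKO 1 to 4. The mean difference was 0.76, and it was 0.46 with cKO 4 left out. With cKO 4 left out, the same 4 genes kept an unadjusted p under 0.05, and the fold changes of Hspa1a and Dnajb1 were 0.59 and 0.29 on the log2 scale. Dnajb1 had an unadjusted p between 0.0647 and 0.0994 when any 1 control library was left out (limma). Hspa1a had one between 0.0542 and 0.102 without control 2, control 3, control 4 or cKO 2 (limma). With a block of replicate numbers or of the 2 sets of replicates, Hspa1a had an unadjusted p of 0.0814 and 0.0571 (limma), and 3 heat shock genes kept theirs under 0.05.

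**Figure D1:**
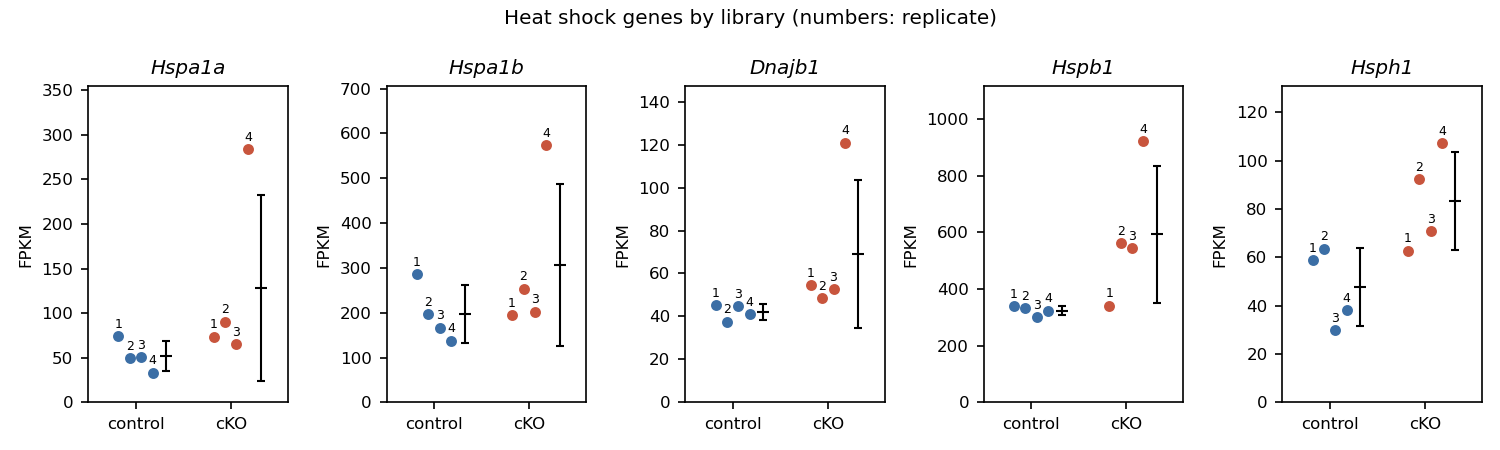
FPKM of the 5 heat shock genes in each library, 1 panel per gene, with a linear axis from 0. Points are libraries numbered by replicate, control in blue and cKO in red, and black bars are the mean ± SD of 4 libraries. cKO 4 is the highest point in all 5 panels, and cKO 1 lies at or near the control libraries for Hspb1, Hspa1a and Hsph1.

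The difference in heat shock genes was uneven between the replicate numbers. Within replicates 1 and 2 the cKO libraries were higher by 0.26 on the log2 scale, averaged over the 5 genes, and within replicates 3 and 4 by 1.26. For Hspb1 the differences were 0.38 and 1.18, for Hsph1 0.31 and 1.34, for Hspa1a 0.42 and 1.71, for Dnajb1 0.31 and 0.88, and for Hspa1b -0.10 and 1.17. All 5 were thus larger within replicates 3 and 4, the set that holds cKO 4 and the 2 lowest control libraries for these genes as an average. The values describe 2 libraries against 2 and were not tested.

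Other targets of the heat shock factors and other chaperones were read from a list of 16 genes, 15 of which passed the filter. The mean was higher in cKO for 9 and lower for 6, with a median log2 fold change of 0.04 beside 0.00 over all 15143 genes tested. None had an adjusted p under 0.05 in limma, and 3 were higher (8.85% of all genes were) and 0 lower (7.53%) at an unadjusted p under 0.05. Hspd1, the mitochondrial chaperonin HSP60, was 164 ± 11.8 FPKM in control and 234 ± 39.03 FPKM in cKO libraries (SD, n = 4 each), with no overlap (limma log2 fold change 0.50, adjusted p = 0.101). Hsp90aa1, the inducible HSP90, was 256 ± 35.7 and 370.2 ± 73.3 FPKM (SD, n = 4 each), also with no overlap (limma log2 fold change 0.52, adjusted p = 0.149). The third, outside the rule for named genes and given because the count is small, was Hspe1, the partner of HSP60 (limma log2 fold change 0.53, adjusted p = 0.180). In all 3, cKO 4 was again the highest library.

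Across the whole set of 38 genes, the comparison between groups gave few calls. None had an adjusted p under 0.05 in limma, and limma-voom on reads recovered from the FPKM gave 0 as well. With a block of replicate numbers, limma-voom gave 4 (10.5%, 4.49% of all genes), of which Btg2 was higher and Dusp6, Gadd45a and Ier5 were lower, while limma with that block gave 0. At an unadjusted p under 0.05 there were 11 of 38 (28.9%), beside 16.4% of the 15143 genes tested. The 4 that were higher were Hspa1a, Hsph1, Hspb1 and Dnajb1 (10.5%, with 8.85% of all genes higher). The 7 that were lower were Ptgs2, Gadd45a, Dusp2, Nr4a3, Ier5, Dusp6 and Nr4a2 (18.4%, with 7.53% of all genes lower). The mean was lower in cKO for 26 of the 38 genes (68.4%), beside 49.8% of all genes, and the median log2 fold change was -0.10 beside 0.00. These counts leaned on cKO 2, without which 2 genes were lower at an unadjusted p under 0.05 (Gadd45a and Dusp2, with 6.06% of all genes lower) and the median was -0.004. Without cKO 4 the mean was lower for 29, and without cKO 2 for 19 (49.9% of all genes). With the libraries scaled to the same sum of FPKM (TPM) it was lower for 27 (61.8% of all genes). Groups did not overlap for 3 genes (7.89%, 10.7% of all genes), namely Hspb1 and Dnajb1 above (6.1% of all genes above) and Dusp2 below (4.6% of all genes below). Scaled to TPM, 1 gene was above and 7 were below without overlap (10.4% of all genes in either direction). In TPM, 4 genes were higher and 13 lower at an unadjusted p under 0.05, where the split of all genes moved from 1340 higher and 1140 lower to 789 and 1657.

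**Figure D2:**
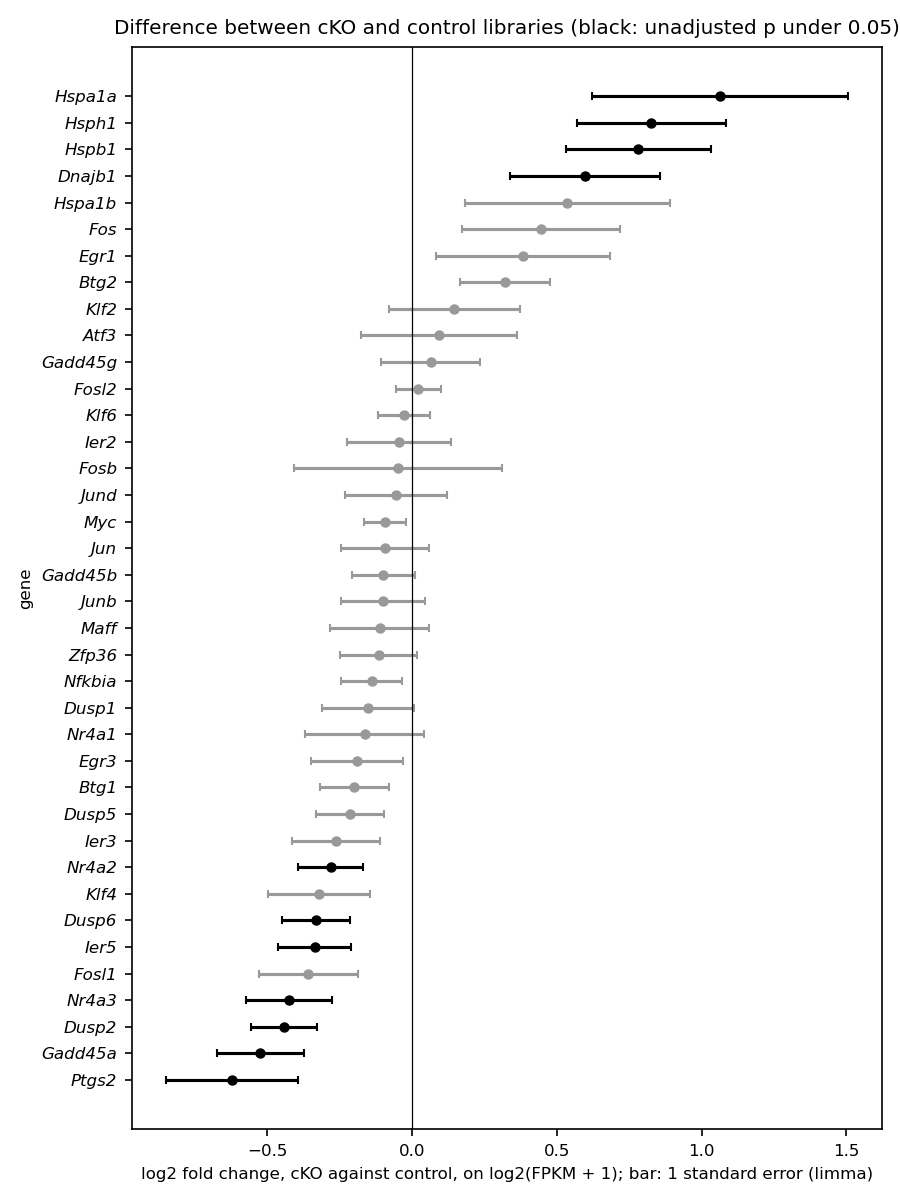
Difference between cKO and control libraries for the 38 genes tested, in order of size, as the log2 fold change on log2(FPKM + 1). Points are limma estimates, bars are 1 standard error, and black marks an unadjusted p under 0.05. The 4 black genes on the right are all heat shock genes, and Ptgs2 is farthest to the left at -0.62.

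Among the transcription factors of the first wave, Fos, Egr1, Fosb and Atf3 had cKO 1 and cKO 4 above the other cKO libraries. All 4 were singled out here after their values were seen. Fos, the inducible partner of JUN in AP-1, was 55.4, 60.1, 65.6 and 64.8 FPKM in control and 120.0, 61.7, 52.3 and 127 FPKM in cKO libraries. cKO 1 and cKO 4 were well above every control, while cKO 2 lay among them and cKO 3 just below. The means of 61.5 ± 4.71 and 90.3 ± 38.8 FPKM (SD, n = 4 each) did not differ beyond that spread (limma log2 fold change 0.44, standard error 0.27, adjusted p = 0.469). Egr1, a zinc finger activator driven by SRF, was 33.4, 36.1, 35.5 and 44.4 FPKM in control and 73.0, 34.6, 29.2 and 75.9 FPKM in cKO libraries. The order of the cKO libraries was that of Fos, and the log2 fold change of 0.38 (standard error 0.30) did not pass (limma adjusted p = 0.579). Fos and Egr1 had an unadjusted p under 0.05 in 1 of the 17 other fits, without cKO 3 (0.0210 and 0.0433, limma).

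Fosb, another FOS protein, was 37.8, 26.6, 33.4 and 46.5 FPKM in control and 56.0, 20.9, 20.5 and 55.7 FPKM in cKO libraries. Here cKO 1 and cKO 4 were above every control library and cKO 2 and cKO 3 below every one, so that the means were almost equal (log2 fold change -0.05, standard error 0.36). Atf3, a stress-induced bZIP factor, was 106, 77.5, 107 and 116 FPKM in control and 132, 68.3, 85.2 and 170.4 FPKM in cKO libraries. cKO 4 and cKO 1 were again on top and cKO 2 at the bottom (log2 fold change 0.09, standard error 0.27, limma adjusted p = 0.902).

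The other AP-1 genes were steadier. Junb, which was among the 5 most abundant of the genes, was 334, 304, 385 and 349 FPKM in control and 326, 245, 324 and 400.1 FPKM in cKO libraries. The cKO libraries took both the lowest and the highest place, around the same middle (log2 fold change -0.10, standard error 0.15). Prdx2 on the other strand, which had up to 4859 reads, overlaps 7.52% of the exonic bases of Junb. Jun ran from 141 FPKM in cKO 2 to 238 FPKM in cKO 4. Jund, a JUN protein that is less tied to stimulation, was 11.3, 9.34, 13.3 and 13.6 FPKM in control and 10.5, 8.83, 10.7 and 16.2 FPKM in cKO libraries, and 52.6% of its exonic bases overlap Gm11175 on the other strand, a gene with 0 reads here. Fosl1, which encodes FRA1, was 32.8, 28.4, 36.2 and 34.8 FPKM in control and 22.9, 18.4, 33.0 and 30.1 FPKM in cKO libraries. Only replicates 1 and 2 of cKO were below all controls (log2 fold change -0.36, standard error 0.17, limma adjusted p = 0.337). Of the exonic bases of Fosl1, 57.2% overlap Ccdc85b on the other strand, which had up to 1344 reads, so the counts of Fosl1 are uncertain without strand. Fosl2 (FRA2) was 50.0 ± 4.08 and 50.8 ± 3.62 FPKM (SD, n = 4 each), and its log2 fold change of 0.02 was the nearest to none of the 38 genes.

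**Figure D3:**
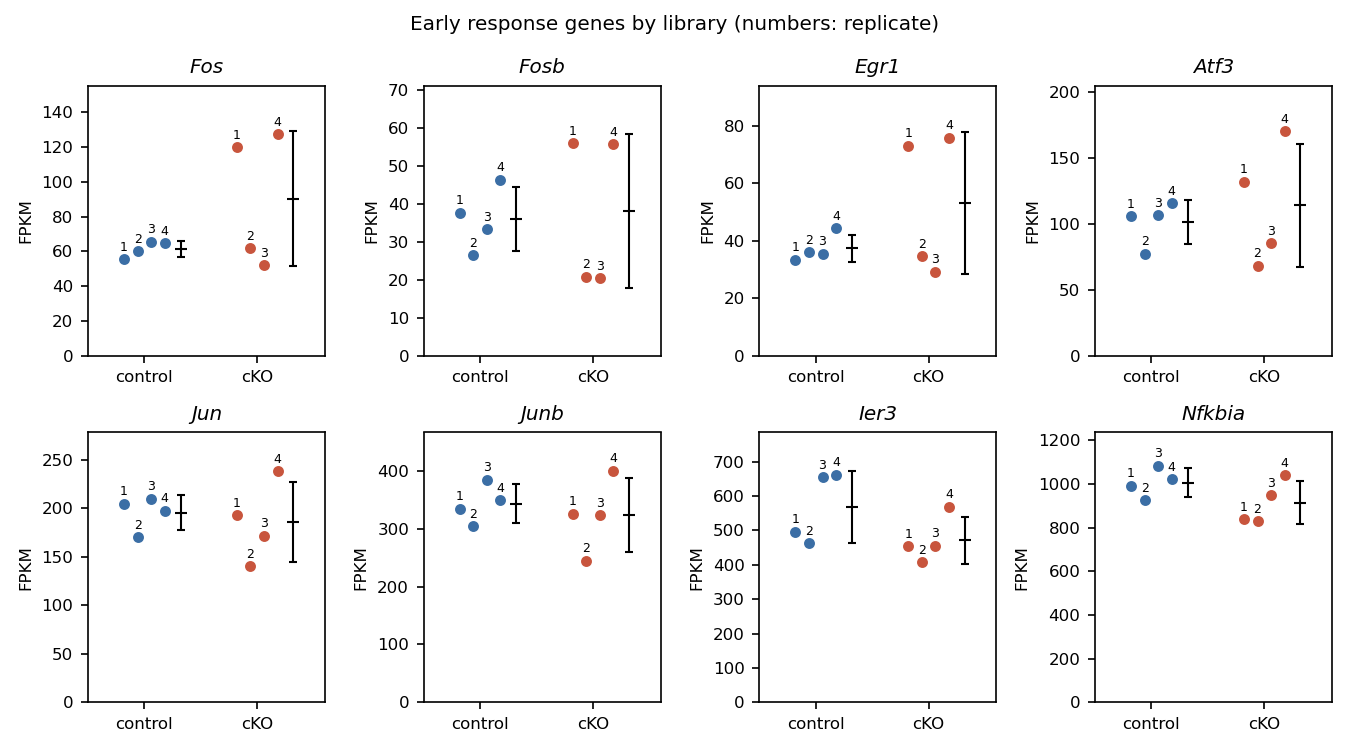
FPKM of 8 early response genes in each library, 1 panel per gene, with a linear axis from 0. Points are libraries numbered by replicate, control in blue and cKO in red, and black bars are the mean ± SD of 4 libraries. For Fos, Fosb, Egr1 and Atf3, cKO 1 and cKO 4 lie above every control library, and for Junb, Ier3 and Nfkbia the groups overlap, with 3 cKO libraries of Ier3 and 2 of Nfkbia below every control library.

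The small MAF protein gene Maff was 64.4, 51.5, 76.1 and 71.4 FPKM in control and 61.1, 45.2, 61.1 and 77.8 FPKM in cKO libraries, with cKO 2 lowest and cKO 4 highest. Egr3 was 13.1 ± 1.18 and 11.6 ± 3.07 FPKM (SD, n = 4 each). The Krüppel-like factors Klf2 and Klf4 and the more abundant Klf6 did not pass, with log2 fold changes of 0.15, -0.32 and -0.03 and limma adjusted p of 0.797, 0.407 and 0.913. Myc, the growth-linked early gene, was 113 ± 5.16 and 106 ± 8.12 FPKM (SD, n = 4 each), with little spread in either group.

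The NR4A genes, which encode nuclear receptors without a known classical ligand, had lower means in cKO for all 3. Nr4a2, on chromosome 2 from 57106830 to 57124003, was 7.73, 7.40, 7.69 and 7.92 FPKM in control and 6.50, 5.30, 5.23 and 7.84 FPKM in cKO libraries. Controls were within a narrow range, and 3 cKO libraries were below it, with cKO 4 inside (log2 fold change -0.28, standard error 0.11, limma adjusted p = 0.253). Nr4a3, on chromosome 4 from 48045153 to 48086447, was 15.7, 17.5, 14.5 and 18.2 FPKM in control and 15.9, 10.04, 9.68 and 13.1 FPKM in cKO libraries. cKO 1 lay among the controls and the others below them (log2 fold change -0.43, standard error 0.15, limma adjusted p = 0.203). Nr4a1 was 32.7 ± 5.19 and 29.9 ± 9.70 FPKM (SD, n = 4 each) and did not pass. Without cKO 2 or cKO 3 neither kept an unadjusted p under 0.05 (0.0507 to 0.0896, limma), nor did Nr4a2 without control 1, control 3 or control 4 (0.0572 to 0.0681, limma).

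Among the IER genes, Ier5, on chromosome 1 from 155096361 to 155099636, was 176, 142, 187 and 181 FPKM in control and 145, 109, 138 and 151 FPKM in cKO libraries. cKO 2 and cKO 3 lay below the lowest control, and cKO 1 and cKO 4 just above it (log2 fold change -0.34, standard error 0.13, limma adjusted p = 0.229). Without control 1, control 3, control 4 or cKO 2 the unadjusted p was between 0.0546 and 0.0649 (limma). Ier3, a survival gene under NF-κB control, was 497, 463, 654 and 662 FPKM in control and 454, 408, 456 and 569 FPKM in cKO libraries. Control 3 and 4 were the highest of the 8, and 3 cKO libraries were below every control (log2 fold change -0.26, standard error 0.15, limma adjusted p = 0.441). Ier2 was 81.3, 68.6, 113 and 102 FPKM in control and 86.1, 68.3, 89.3 and 108 FPKM in cKO libraries. It was alike in both groups and lower in replicates 1 and 2 than in replicates 3 and 4 of each.

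The MAP kinase phosphatases, which end the signal that starts the response, had lower means in cKO for all 4. Dusp2, a nuclear phosphatase, lies on chromosome 2 from 127336159 to 127338376. It was 14.7, 12.7, 18.4 and 13.7 FPKM in control and 11.4, 9.96, 9.59 and 11.6 FPKM in cKO libraries. Every cKO library was below every control, and the control values were the more scattered. The log2 fold change was -0.44 with a standard error of 0.11 (limma adjusted p = 0.111), and the exact permutation test, two-sided, gave p = 0.0286, the smallest it can. Summed lymphocyte markers (4 of 4 detected in every library) were highest in the same 2 control libraries, at 8.62, 3.65, 19.6 and 2.83 FPKM in control and 3.60, 2.60, 1.499 and 3.12 FPKM in cKO libraries, and their part in the level of Dusp2 was not tested. Dusp6, the cytoplasmic phosphatase of ERK, lies on chromosome 10 from 99263231 to 99267489. It was 58.9, 48.8, 73.1 and 57.1 FPKM in control and 47.9, 42.2, 50.4 and 46.1 FPKM in cKO libraries. Only cKO 3 was above the lowest control, control 2 (log2 fold change -0.33, standard error 0.12, limma adjusted p = 0.206), and without cKO 2 the unadjusted p was 0.0553 (limma). Dusp1 and Dusp5 did not pass, with log2 fold changes of -0.15 and -0.21 and limma adjusted p of 0.685 and 0.412. With a block of replicate numbers or of the sets, Dusp5 had an unadjusted p under 0.05 (limma).

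A list of 11 other feedback inhibitors of MAP kinase signalling had 2 genes higher (8.85% of all genes were) and 2 lower (7.53%) at an unadjusted p under 0.05 and 0 with an adjusted p under 0.05 (limma), with a median log2 fold change of -0.02. Spry2, an inhibitor of receptor tyrosine kinase signalling, was 41.7 ± 1.59 FPKM in control and 31.6 ± 3.36 FPKM in cKO libraries (SD, n = 4 each), with no overlap. Its log2 fold change of -0.40 had the smallest p of the genes on the pathway lists (limma adjusted p = 0.0624). Dusp10, a phosphatase of p38 and JNK, was 10.9 ± 1.65 and 8.03 ± 0.859 FPKM (SD, n = 4 each), also with no overlap (limma log2 fold change -0.39, adjusted p = 0.140). The 2 higher genes, named after their values were seen, were Dusp4 and Dusp16 (limma adjusted p of 0.221 and 0.144).

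Zfp36 encodes tristetraprolin, which removes AU-rich early mRNAs, and Btg1 and Btg2 encode antiproliferative adaptors of mRNA deadenylation. Zfp36 was 172 ± 13.9 and 161 ± 30.7 FPKM (SD, n = 4 each). The BTG genes had opposite signs, with log2 fold changes of 0.32 for Btg2 and -0.20 for Btg1, and neither had an adjusted p under 0.05 in limma (0.346 and 0.456).

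Ptgs2, the prostaglandin synthase COX-2, had the largest negative difference and lies on chromosome 1 from 150100031 to 150108227. It was 24.6, 26.4, 24.0 and 25.1 FPKM in control and 28.2, 14.9, 12.8 and 11.7 FPKM in cKO libraries. The controls were close together, cKO 1 was above all of them, and the other 3 cKO libraries were far below. The log2 fold change was -0.62 with a standard error of 0.23 (limma adjusted p = 0.223). With cKO 1 left out it was -0.89, with an adjusted p of 0.0114 (limma), and this was the one gene of the 38 with an adjusted p under 0.05 when a library was left out (2.63%, 0.515% of all genes without cKO 1). Leaving out cKO 2, cKO 3, cKO 4 or control 2 gave an unadjusted p between 0.0502 and 0.0673. Red cell transcripts split the same libraries, since summed erythroid markers (5 of 5 detected in every library) were 22.5 to 30.0 FPKM in control libraries and 28.0, 15.2, 15.1 and 14.5 FPKM in cKO 1 to 4. Summed macrophage markers (5 of 5 detected) were 226 to 312 FPKM in control and 231, 173, 139 and 196 FPKM in cKO libraries. The part of other cells in the level of Ptgs2 was not tested.

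Gadd45a, a growth arrest gene of the DNA damage and stress response, lies on chromosome 6 from 67035096 to 67037457. It was 32.7, 27.2, 42.1 and 35.6 FPKM in control and 21.4, 22.4, 30.1 and 20.5 FPKM in cKO libraries. Only cKO 3 reached the range of the controls. The log2 fold change was -0.52 with a standard error of 0.15 (limma adjusted p = 0.139), and it stayed under an unadjusted p of 0.05 in all 17 other fits. Dusp2, Hspb1 and Hsph1 did so too. An annotated neighbour on the other strand, E230016M11Rik, shares 19.1% of the exonic bases of Gadd45a and had up to 33 reads. Gadd45b was 86.0 ± 5.73 and 80.7 ± 12.4 FPKM (SD, n = 4 each). Gadd45g was 32.4, 29.5, 45.8 and 38.7 FPKM in control and 31.97, 33.1, 38.3 and 50.2 FPKM in cKO libraries, alike in both groups.

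Nfkbia encodes IκBα, which is induced by NF-κB and holds it back, and was the most abundant of the 39 genes. It was 992, 925, 1083 and 1021 FPKM in control and 840.1, 829, 949 and 1041 FPKM in cKO libraries. cKO 1 and cKO 2 were below every control and cKO 4 among them (log2 fold change -0.14, standard error 0.11, limma adjusted p = 0.563). Of 9 other NF-κB genes, 2 were lower (7.53% of all genes were) and 0 higher (8.85%) at an unadjusted p under 0.05, and 0 had an adjusted p under 0.05 (limma), with a median log2 fold change of -0.03. Nfkb1 had a log2 fold change of -0.20 (limma adjusted p = 0.188) and Nfkb2 one of -0.15 (limma adjusted p = 0.291), both without overlap between groups.

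**Figure D4:**
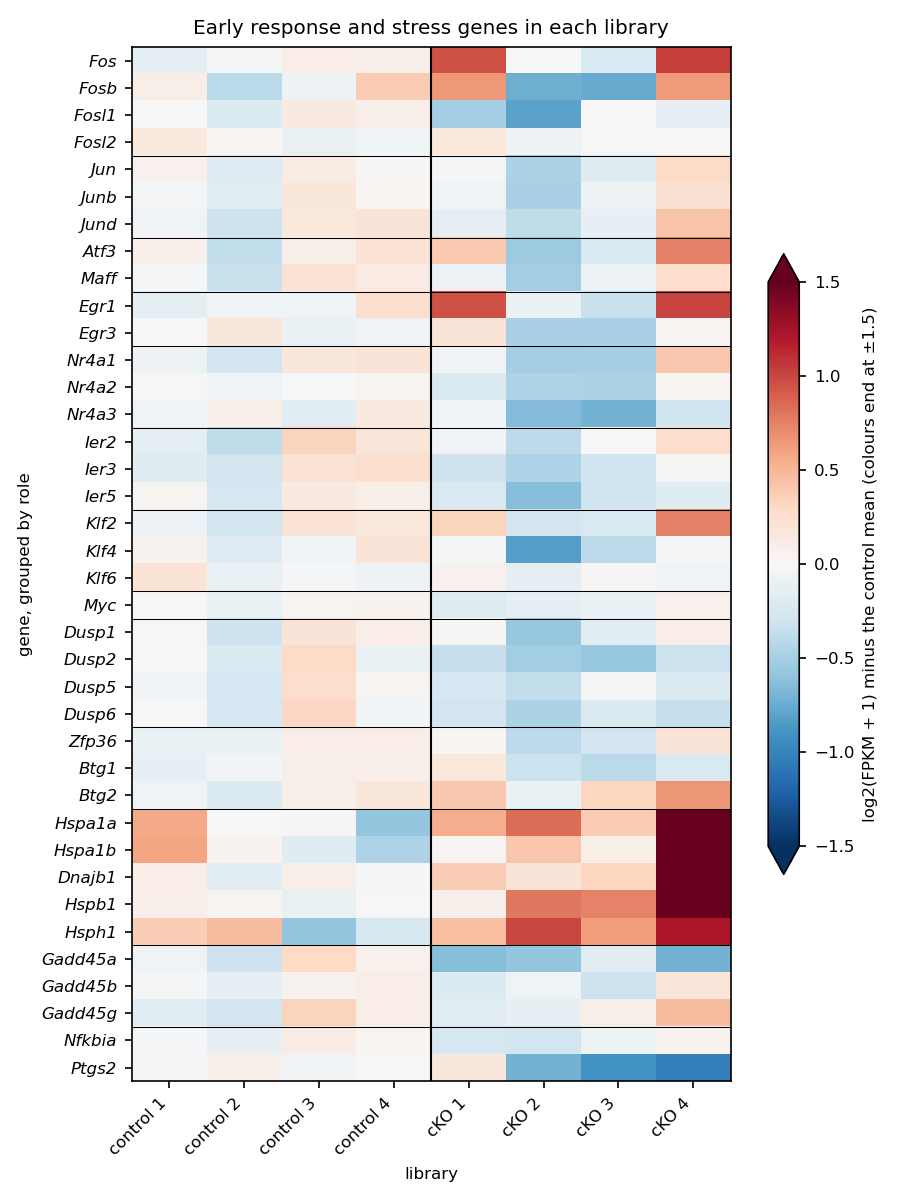
Levels of the 38 genes in the 8 libraries, grouped by role, as log2(FPKM + 1) minus the mean of the 4 control libraries. Colours run from blue (lower) to red (higher) and end at 1.5 in either direction. The control columns are pale, cKO 2 is mostly blue outside the heat shock genes, and the darkest red is that of heat shock genes in cKO 4.

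The spread between cKO libraries was larger than between control libraries for most of the genes. The SD of log2(FPKM + 1) was larger in cKO for 29 of 38 genes (76.3%), where 53.0% of all genes tested had a larger SD in cKO, and it was at least 2 times as large for 19 (50.0%, 16.1% of all genes). The median ratio of the SDs was 1.98, beside 1.04 over all genes. Among the 33 genes other than heat shock genes, 25 had the larger SD in cKO. The ratio was 9.84 for Ptgs2, 7.62 for Hspb1, 6.64 for Nr4a2, 5.87 for Fos, 4.97 for Dnajb1 and 4.05 for Egr1. Control libraries were the more scattered for 9 genes, among them Dusp6, Dusp2, Klf6, Dusp5, Hsph1 and Ier3. Without cKO 4, 25 of 38 had the larger SD in cKO (48.8% of all genes) and the median ratio was 1.24. With any other library left out, 27 to 31 did, with a median ratio of 1.77 to 2.83.

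cKO 4 was the highest of the 8 libraries for 19 of 38 genes (50.0%), where it was highest for 16.0% of all genes. Of the 33 genes other than heat shock genes it was highest for 14 (42.4%). cKO 2 was the lowest library for 18 of 38 (47.4%, 10.3% of all genes) and cKO 3 for 9 (23.7%, 13.8% of all genes). Control 3 was highest for 9 (23.7%, 15.2% of all genes), cKO 1 for 5 (13.2%, 11.2%) and control 4 for 4 (10.5%, 10.4%), and control 4 was lowest for 2 (5.26%, 9.18% of all genes). Against the control range, 20 of 38 genes were above it in cKO 4 and 6 below, whereas 4 were above and 27 below it in cKO 2. In cKO 1 the numbers were 12 above and 9 below, and in cKO 3 4 above and 16 below. Over all genes, 23.9% to 26.4% were above and 23.2% to 24.8% below the control range in each cKO library. With TPM scaling, cKO 4 was highest for 11 of 38 genes (6.72% of all genes), 6 of which were outside the heat shock group, and cKO 2 was lowest for 13 (7.37% of all genes). cKO 4 also had the most reads on genes, 19896988, and cKO 3 had the fewest, 16123108. The summed luminal markers, which include caseins, were highest in cKO 4 at 11640 FPKM, of which Csn2 made up 4523 and Csn3 1448 FPKM. Their part in these counts was not tested.

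**Figure D5:**
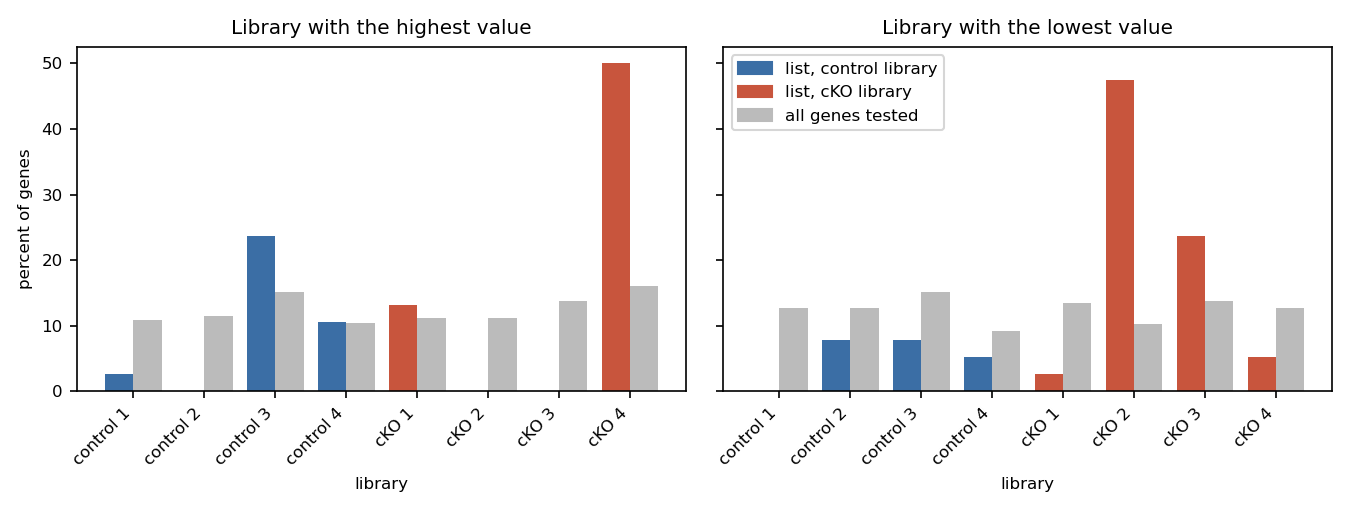
Share of genes, in percent, for which each library is the highest (left) or the lowest (right) of the 8. Coloured bars are the 38 genes, control in blue and cKO in red, and grey bars are all 15143 genes tested. cKO 4 is highest for 50.0% and cKO 2 lowest for 47.4% of the 38 genes, while no library passes 16.0% of all genes.

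Between the replicate numbers, most of the genes had a lower mean in replicates 1 and 2 than in replicates 3 and 4. This held for 30 of 38 genes (78.9%), beside 52.1% of all genes, with a median difference of -0.19 on the log2 scale beside -0.01. It held for 29 in the control libraries alone (53% of all genes) and for 29 in the cKO libraries alone (51.5%). Of the 33 genes other than heat shock genes, 27 were lower. The count was 24 without cKO 4 (51.3% of all genes), 26 without cKO 2, and 27 to 33 without any other library. In TPM it was 23 (29.5% of all genes), with a median of -0.05 beside 0.09 over all genes. Averaged over the 38 genes, the difference between replicates 1 and 2 and replicates 3 and 4 was -0.12 in control and -0.20 in cKO libraries. The mean difference between cKO and control was -0.01, in which 0.76 over the 5 heat shock genes offset lower means of 26 genes. With cKO 4 left out, the mean difference between cKO and control was -0.13. Few genes separated the sets fully. Replicates 1 and 2 did not overlap replicates 3 and 4 for 2 of 38 genes, Ier2 and Gadd45g (5.26%, 12.8% of all genes), and both were lower in replicates 1 and 2 (6.82% of all genes lower, and 5.98% higher, as 0 of the 38 were). The differences were -0.44 and -0.43 on the log2 scale. The next were -0.40 for Fosl1, -0.39 for Jund, 0.37 for Ptgs2 and -0.37 for Maff. For Jund and Maff the difference was alike in control (-0.36 and -0.35) and cKO libraries (-0.41 and -0.38). For Ptgs2 it was 0.05 in control and 0.70 in cKO libraries, and for Fosl1 -0.21 and -0.60. Averaged over the 5 heat shock genes, the difference was 0.42 in control and -0.57 in cKO libraries, and 4 of the 5 had opposite signs, whereas Dnajb1 was at -0.05 and -0.63. These sets were first seen in the same libraries, so the differences are given as values without a test.

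Among other early response genes on a list of 30 names, 28 were in the table and tested. At an unadjusted p under 0.05, 3 were higher (8.85% of all genes were) and 3 lower (7.53%), and 0 had an adjusted p under 0.05 (limma). The median log2 fold change was -0.06, and cKO 4 was the highest library for 6 of the 28, beside 16.0% of all genes. Zfp36l1, a relative of tristetraprolin, was 107 ± 6.85 FPKM in control and 86.8 ± 7.09 FPKM in cKO libraries (SD, n = 4 each), with no overlap (limma log2 fold change -0.30, adjusted p = 0.126). Plk2, a kinase induced by serum, had a log2 fold change of -0.25 (limma adjusted p = 0.170). The 3 higher genes, named after their values were seen, were Zfp36l2, Klf10 and Socs3 (limma adjusted p of 0.180, 0.211 and 0.254), each without overlap. Upstream of the response, 0 of 15 MAP kinase and SRF genes were higher (8.85% of all genes were) and 1 lower (7.53%) at an unadjusted p under 0.05. The lower gene was Mapk14 (p38α, limma log2 fold change -0.18, adjusted p = 0.304), and the median log2 fold change of the list was 0.01. Map3k8 had the next smallest p of that list (limma log2 fold change 0.16, adjusted p = 0.381). Of 9 other bZIP genes of the AP-1 family, with a median log2 fold change of -0.10, 1 was lower (7.53% of all genes were) and 0 higher (8.85%) at that threshold. The lower gene was Batf (limma log2 fold change -0.23, adjusted p = 0.238), and Atf4, the factor of the integrated stress response, followed at -0.17 (limma adjusted p = 0.524). The medians of all 6 lists of other genes were small and moved when 1 library was left out, which turned the sign of 5. The range was -0.11 (without cKO 4) to 0.02 (without cKO 2) for other early response genes, -0.01 (without cKO 3) to 0.11 (without cKO 1) for chaperones, -0.11 (without control 2) to 0.02 (without cKO 4) for feedback inhibitors, -0.10 (without cKO 4) to 0.03 (without cKO 3) for NF-κB genes and -0.05 (without cKO 4) to 0.02 (without control 4) for MAP kinase and SRF genes. For the bZIP genes it was -0.14 (without cKO 3) to -0.03 (without cKO 2).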

How the data were processed

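Total RNA of the epithelial preparations was sequenced by Novogene from NEBNext Ultra libraries. The authors used FastQC for read quality, Hisat2 against GRCm38 for mapping and DESeq2, at p under 0.05, for differences, and deposited FPKM. Whether that p was adjusted is not stated in the paper. The submitters' processing notes name featureCounts 1.5.0-p3, StringTie 1.3.3b and the build mm9. Coordinates of 99.68% of the 55480 gene identifiers shared with GENCODE vM21 were the same, so GRCm38 is used here. The annotation release and the strand setting are not given in the sources used here. The deposited table holds FPKM of 8 libraries, which the authors scaled by library size factors, and gene lengths. FPKM times length gave whole reads for 100% of values above 0 (tolerance 0.01 read). The depth was 16123108 to 19896988 reads on genes per library, with 4 mice in each group.

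FPKM are not counts, so limma 3.58.1 (R 4.3.3, empirical Bayes with trend, two-sided, Benjamini-Hochberg) was run on log2(FPKM + 1) for all 15143 genes with a mean of at least 0.5 FPKM, and the values of the 39 genes were read from that fit. This scale understates changes of low genes. Single genes were also compared by an exact permutation test of 4 against 4. The procedure was tested on simulated data. Python 3.11.15, pandas 2.3.3, numpy 2.4.6, scipy 1.17.1 and matplotlib 3.10.9 served for the rest.

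The 39 genes and the lists of other genes were chosen with earlier results of these data known. Each gene was named, and the value in every library was given for those with an unadjusted p under 0.05, those without overlap between groups, the 6 with the largest fold change, the 6 with the largest difference between replicates 1 and 2 and replicates 3 and 4, the 5 most abundant and those with a library far from the other 3 of its group. Of each other list, the 2 genes with the smallest p were named. On those lists, 4 names (Cyr61, Ctgf, Mkl1 and Mkl2) are older symbols that were not found in the table. Alternatives were a pseudocount of 0.1, TPM scaling, no filter, a mean of at least 1 FPKM, no trend, a block of replicate numbers or of the sets, limma-voom on the whole reads, alone or with the replicate block, and each library left out in turn. 1 marker on the lymphocyte list is not reported here, and the sum of that list is over the other 4. Medians of the other lists with a library left out, and counts of spread, of highest libraries and of genes lower in replicates 1 and 2 under TPM or with a library left out were added after the values were seen.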

Additional observations from a re-analysis of the deposited data

Results flagged for a closer look

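The highest or lowest library of each group was compared with the other 3 by Dixon's criterion, over 106 groups of 4 values (the 38 genes, the other genes named and the depth of the libraries). Chance flags about 1 in 20 such groups, which is 5.3 of 106, and 5 were found, so the number is not above that. For 3 of them the library was cKO 4 and the gene a heat shock gene. Hspa1a was 283.7 FPKM in cKO 4 and 65.5 to 90.4 FPKM in the other cKO libraries. Hspa1b was 574.2 FPKM in cKO 4 against 194 to 254 FPKM, and Dnajb1 was 120.9 FPKM in cKO 4 against 48.4 to 54.5 FPKM. Hspa1a and Hspa1b are near-identical copies, so they do not count as independent genes. Plk2 was 40.6 FPKM in control 2 and 44.8 to 45.6 FPKM in the other control libraries. Reads on genes were 18778823 in control 4 and 16456480 to 16642619 in the other control libraries.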

How the results depend on the processing

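The median log2 fold change of the 38 genes stayed negative in all 17 other fits (-0.21 without cKO 4 to -0.004 without cKO 2). No gene of the 38 had an adjusted p under 0.05 in limma, against 4 (Btg2, Dusp6, Gadd45a and Ier5, adjusted p of 0.0161 to 0.0479, 4.49% of all genes) in limma-voom with the replicate block, and 0 to 1 with a library left out (Ptgs2, without cKO 1). Genes higher at an unadjusted p under 0.05 numbered 4 (8.85% of all genes), against 2 with no filter (Hspa1a and Dnajb1 were lost, 5.51% of all genes). With a library left out they numbered 2 (without control 2, control 3 or control 4, 7.68% to 7.93%) to 6 (without cKO 3, 8.69%). With either block, Btg2 was gained and Hspa1a lost. Lower genes numbered 7 (7.53% of all genes), against 13 in TPM (10.9%), 11 with the replicate block (9.55%), 11 with the block of sets (9.47%), 12 in limma-voom with the replicate block (10.8%), and 2 (without cKO 2, 6.06%) to 9 (without control 2, cKO 1 or cKO 4, 6.44% to 7.79%) with a library left out. Dusp5, Fosl1 and Ier3 were gained in limma with either block, Klf4 with the replicate block and Nfkbia with the block of sets. Genes without overlap between groups numbered 3, against 8 in TPM (1 higher and 7 lower, 10.4% of all genes). Over all genes, 135 adjusted calls became 10 with no filter, 50 with the replicate block, 442 with the block of sets, 252 in limma-voom, 680 in limma-voom with the replicate block and 0 to 78 with a library left out. TPM moved the median of all genes by -0.05. The cause of these changes was not tested. In 11 genes with differences of at most 0.146 (log2) the sign changed in 23 fits in all, 0 of them past the threshold.

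Deviations from the group means of same-numbered libraries correlated at 0.0797 to 0.137 over genes, so the numbers were not taken as pairs, and not every library correlated best with its own number. All 8 control and cKO pairs within replicates 1 and 2 or within replicates 3 and 4 correlated positively (0.0797 to 0.178), and all 8 pairs across the sets negatively (-0.21 to -0.072). Deviations within a group cancel out, so positive values within the sets force negative ones across them on balance. The negative values are therefore no separate observation. The libraries of a group differed by more than counting error (chi-square per degree of freedom of at least 8.18 over genes), so none was counted as a repeat of another.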
